A study of Mus musculus with 4 samples.

Results

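The AP-1 and EGR immediate early genes are 10 transcription factor genes, Fos, Fosb, Fosl2, Jun, Junb, Jund, Atf3, Egr1, Egr2 and Egr3. They were taken by gene symbol from an expression array study of mouse bone marrow cells and make up 10 of the 22180 genes that had a probe set assigned to 1 gene. They were measured by 11 probe sets, 1 per gene and 2 for Jund. Samples came from mice with a knockout of SRC-3 (KO, 2 arrays) and from wild-type mice (WT, 2 arrays). Every sample was total RNA of LSK cells, marrow cells that lack lineage markers and carry Sca1 and c-Kit on their surface, a fraction rich in blood stem cells and early progenitors. Flow cytometry isolated them from the marrow of male mice aged 8 weeks, after red cells had been lysed. SRC-3 is the product of Ncoa3, a coactivator that nuclear receptors and other transcription factors recruit. The sources used here do not give the knockout allele, the strain or the number of mice behind each sample. The samples are labelled as biological replicates, and if those of a genotype did not come from separate mice, their spread may be technical.

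Immediate early genes are transcribed within minutes of a signal, without new protein synthesis, and their mRNAs and proteins are short-lived. Growth factors, cytokines and stress act on them through MAP kinases. These phosphorylate the ternary complex factors already bound near the promoters together with serum response factor (SRF). They act on CREB proteins through downstream kinases. FOS and JUN proteins pair through leucine zippers to form AP-1, and EGR proteins bind GC-rich sites through zinc fingers. In mouse stem cells Egr1 is known to restrain division and exit from the marrow, and Junb is known to limit expansion of the myeloid lineage. The same genes also respond to the handling of cells during tissue preparation and sorting.

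Promoter sequence from RefSeq (build GRCm38.p6) was matched by symbol for 8 of the 10 members, which have 12 annotated starts between them. Egr1 and Egr3 had no entry. The 250 bases before each start were searched on both strands for the CRE TGACGTCA, its core TGACGT, the AP-1 site TGANTCA, the EGR site GCGNGGGCG and the CArG box, which SRF binds. The core lies within the full CRE, so each CRE match is also a match of the core. The last 100 bases before the start are shown for 3 members whose KO arrays lay below their WT arrays and for Jun and Junb, whose arrays overlapped. For Fosb and Egr2, where other annotated transcripts start nearby, 30 bases around a match are shown. Capitals mark a match, each sequence is written 5′ to 3′ on the strand of the gene, and a stretch with no match is all in lower case.
Fos, chr12:85473790-85473889, plus strand: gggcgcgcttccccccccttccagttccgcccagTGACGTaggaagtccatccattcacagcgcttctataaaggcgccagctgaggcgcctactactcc
Fosl2, chr5:32136372-32136471, plus strand: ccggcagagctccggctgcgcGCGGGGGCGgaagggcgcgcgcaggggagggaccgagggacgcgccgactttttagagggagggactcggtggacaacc
Atf3, chr1:191183334-191183433, minus strand: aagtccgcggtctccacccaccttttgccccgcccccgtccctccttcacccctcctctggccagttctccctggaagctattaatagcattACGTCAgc
Jun, chr4:95052223-95052322, minus strand: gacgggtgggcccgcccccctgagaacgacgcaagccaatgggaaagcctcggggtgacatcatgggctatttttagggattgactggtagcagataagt
Junb, chr8:84978749-84978848, minus strand: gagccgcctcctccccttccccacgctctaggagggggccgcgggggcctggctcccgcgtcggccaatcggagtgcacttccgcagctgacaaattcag
Fosb, chr7:19310076-19310105, minus strand: tgacgcaagcGCGGGGGCGggtcccggagg
Egr2, chr10:67537791-67537820, plus strand: ctcagtCCATATATGGgcagcgACGTCAcg

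The CRE core was found before 5 of the 12 member starts and in 6.47% of all 32851 promoter windows of that length. These starts belong to 3 members, Fos, Atf3 and Egr2, and the Egr2 windows that hold the core overlap and share the same match. In Fos the core lay 66 to 61 bases before the start, and in Atf3, where it was on the other strand, 8 to 3 bases before it. The EGR site was found before 2 of the 12 starts, those of Fosb and Fosl2, against 4.7% of all windows. Among the members the CArG box was found before Egr2 starts, against 1.47% of all windows. It was present in the windows of 4 Egr2 starts, of which 3 overlap and share 1 box, so there were 2 distinct boxes. The full CRE and the AP-1 site, present in 1.55% and 6.75% of all windows, had no match before the 12 member starts. These are matches of letters in short windows.

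The labels were checked with the targeted gene. Ncoa3 had log2 levels of 5.35 and 5.09 on the KO arrays, against 7.76 and 7.05 on the WT arrays, and differed by -2.19 in KO (SE 0.27, limma adjusted p = 0.0380). Its adjusted p was 0.716 without KO replicate 1, 0.551 without KO replicate 2 and 0.0948 with all probe sets of the table in the fit. Kit, which encodes one of the sort's surface markers, was at 9.43 and 9.34 in KO and 10.33 and 9.65 in WT. The gene of Sca1, Ly6a, had no probe set of its own in the annotation used here. Of 10 LSK and stem cell genes looked up, 8 were measured. At an unadjusted limma p under 0.05, 5 were lower in KO, against 6.93% of all genes. Both KO arrays lay below both WT arrays for 6 of the 8 and above for 2, against 22.9% and 25.1% of all genes. Markers of other cell types were summed on each array. The summed signal of the 5 measured of 9 erythroblast markers was 449.7 to 461 in KO and 84.3 to 87.5 in WT (linear scale). Both KO arrays lay above both WT arrays for 4 of these 5 and below for 1, against 25.1% and 22.9% of all genes. The sum of 11 of 11 neutrophil markers was 7950.0 to 7973 in KO and 5729 to 7364 in WT. Mpo, at 12.04 and 12.02 in KO and at 12.16 and 11.79 in WT (log2), made up most of it with Elane. Elane was at 11.61 and 11.64 in KO and at 11.33 and 10.86 in WT. Of the 11 neutrophil markers, 9 had both KO arrays above both WT arrays, as did 25.1% of all genes. Their median difference was 0.72. The sum of 11 of 12 macrophage and dendritic cell markers was 2069 to 2128 in KO and 1187 to 1251 in WT. Of these 11 markers, 7 had a higher and 4 a lower mean in KO, with a median difference of 0.15. The arrays of 6 overlapped between the genotypes, as did those of 11525 of all 22180 genes. The sum of 9 of 10 B cell markers was 351.3 to 351.6 in KO and 418 to 502 in WT. Without Jchain the B cell sum was 298 to 302 in KO and 284 to 287 in WT, the opposite order. For T and NK cells (8 of 10 markers) the sums were 1309 to 1383 in KO and 872 to 1191 in WT, for mast cells and basophils (8 of 8) 968 to 1030.1 in KO and 524 to 875 in WT, for platelets and megakaryocytes (9 of 10) 509.7 to 518 in KO and 372 to 403 in WT, and for stroma and endothelium (11 of 11) 501 to 532 in KO and 744 to 837 in WT. Of the 11 stroma and endothelium markers, 8 overlapped between the genotypes, as did 11525 of all 22180 genes. Both KO arrays lay below both WT arrays for 3 and above for 0, against 22.9% and 25.1% of all genes. The median difference of the 11 was -0.06 and the lowest -1.51. The T and NK cell markers were mixed, 4 with lower and 4 with higher means in KO and a median difference of -0.03. So were those of platelets and megakaryocytes, with 4 lower, 5 higher and a median of 0.13. No marker value was at 0, the lowest being 1.83 on the log2 scale. The part of these cells in the differences given below was not tested. In sorted samples of this kind, fewer cells expressing a gene and less RNA per cell cannot be told apart.

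Most of the AP-1 and EGR genes had lower mean levels in KO, though none passed the adjusted threshold. Of the 10 members, 9 had a lower mean in KO, as did 50.2% of all genes, and for 7 of them both KO arrays lay below both WT arrays. Jund was the member with both KO arrays above both WT arrays. Over all genes 22.9% had KO arrays below WT arrays and 25.1% had them above. The median difference, KO minus WT, was -0.81 on the log2 scale over the 10 members and -0.0010 over all genes. No member passed an adjusted p of 0.05 in limma (0 of 10), a threshold at which 0.113% of all genes were lower and 0.397% higher in KO. At an unadjusted p under 0.05, the same 7 members were lower and 0 were higher in KO, against 6.93% of all genes that were lower and 10.5% that were higher. The members were proposed with earlier results of these arrays known, so these counts describe the list. An exact permutation test of a single gene with 2 arrays against 2 cannot give a two-sided p below 0.333.

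**Figure D1:**
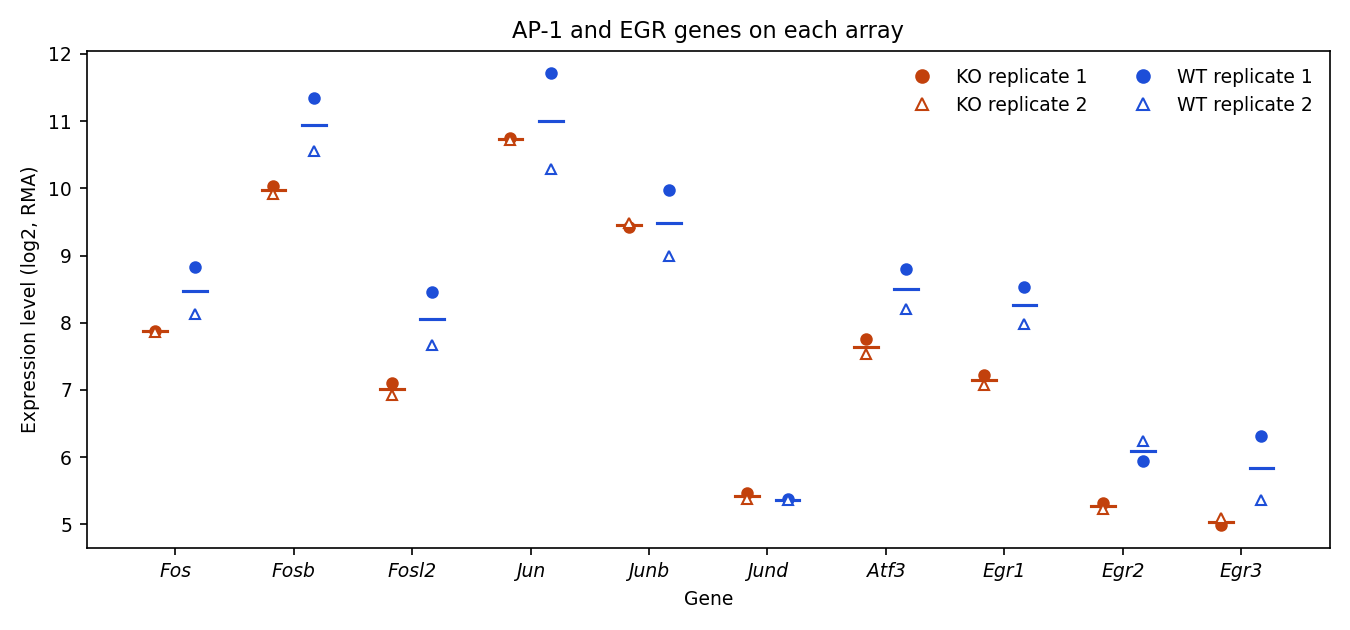
Log2 RMA level of each of the 10 genes on each array, KO (orange) left of WT (blue), with a bar at the mean of the 2 arrays. Both KO arrays lie below both WT arrays for 7 genes, and the arrays of Jun and Junb overlap. For 9 genes the KO points lie closer together than the WT points, Jund being the exception.

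The 3 EGR genes, which encode zinc finger factors, all had KO arrays below WT arrays. Egr1 was at 7.22 and 7.07 in KO, against 8.54 and 7.98 in WT. It had the largest difference of the 10 members, -1.11 (SE 0.23, limma adjusted p = 0.0933), a level 2.16-fold lower in KO, and 0.41% of all genes had a lower difference. Egr2, known in lymphocytes as a regulator of the response to antigen, was at 5.32 and 5.23 in KO and at 5.94 and 6.24 in WT. Its difference was -0.82 (SE 0.19, limma adjusted p = 0.115), or 1.76-fold. Egr2 was the member whose lower WT value was on WT replicate 1. Egr3, a close relative of Egr2, was at 4.99 and 5.09 in KO, against 6.31 and 5.36 in WT. The WT arrays of Egr3 lay 0.95 apart, more than the mean difference of -0.79 (SE 0.32, limma adjusted p = 0.265).

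The 3 FOS family members, whose proteins need a partner such as JUN to bind DNA, also had KO arrays below WT arrays. Fosl2, which encodes FRA-2, was at 7.10 and 6.93 in KO and at 8.46 and 7.66 in WT. It was 2.07-fold lower in KO, a difference of -1.05 (SE 0.28, limma adjusted p = 0.143). Fosb was at 10.04 and 9.92 in KO, against 11.34 and 10.55 in WT, with a difference of -0.97 (SE 0.25, limma adjusted p = 0.139). Fos, the best known of the immediate early genes, was at 7.88 and 7.87 in KO and at 8.83 and 8.13 in WT. Its difference of -0.61 (SE 0.25, limma adjusted p = 0.278) was smaller than the 0.70 between its WT arrays.

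Atf3, an ATF/CREB family gene that stress induces and whose protein can pair with JUN, was at 7.75 and 7.54 in KO and at 8.80 and 8.20 in WT. The difference was -0.85 (SE 0.23, limma adjusted p = 0.150), or 1.81-fold.

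The 3 JUN family genes differed less between the genotypes, with intervals that include 0. Jun, the main partner of FOS proteins, was at 10.75 and 10.72 in KO and at 11.71 and 10.28 in WT. Both KO arrays lay between the WT arrays, and the difference was -0.26 with a 95% interval of -1.25 to 0.74 (limma adjusted p = 0.813). Junb showed the same order, with 9.43 and 9.48 in KO, against 9.98 and 8.99 in WT. Its difference was -0.03 with an interval of -0.77 to 0.71 (limma adjusted p = 0.980), and it was 0.11 after each array was centred on its median, a scaling that moved the median of all genes to 0.13. These intervals do not show that Jun and Junb were unaffected, since that of Jun holds the differences of all 3 FOS genes and that of Junb the difference of Fos. Jund, which is known to be expressed more steadily than the other JUN genes, was at 5.46 and 5.38 in KO and at 5.37 and 5.36 in WT. Its difference was 0.06 with an interval of -0.35 to 0.47 (limma adjusted p = 0.908). The second Jund probe set was at 3.62 and 4.32 in KO and at 4.05 and 4.19 in WT, with overlapping arrays and a difference of -0.15 (SE 0.26), so the probe sets of this gene differed in sign, both within their errors.

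The WT arrays were much farther apart for these genes than the KO arrays. The median gap between the arrays of a genotype was 0.098 for KO and 0.74 for WT over the 10 members. Over all genes these medians were 0.15 for KO and 0.23 for WT, and over the genes at or above the median level, which include all 10 members, 0.11 for KO and 0.28 for WT. The KO gap was smaller than the WT gap for 9 of 10 members, for 60.2% of all genes and for 73.7% of those at or above the median level. By list, it was smaller for 12 of 13 heat shock and dissociation stress genes. The same held for 6 of 6 SRF, ternary complex and MRTF genes. It was smaller for 33 of 43 other immediate early genes, a share near the 73.7% above. In the remaining pathway lists it was smaller for 9 of 13 MAP kinase cascade genes and 13 of 21 known AP-1 and EGR targets. For other AP-1, ATF, CREB and MAF genes the count was 10 of 17, and for Egr4 and the NAB genes 1 of 3. Jun had the largest gap between the WT arrays, 1.43, and 99.7% of all genes had a smaller one. The WT gaps of Junb (0.99) and Egr3 (0.95) followed, and that of Jund was 0.010. WT replicate 1 was the higher array for 9 of 10 members, Egr2 being the exception, and for 46.6% of all genes. In the brighter part of all genes, cut at the median level, it was the higher one for 6562 of 11090. With 2 arrays per genotype the spread itself was not tested.

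**Figure D2:**
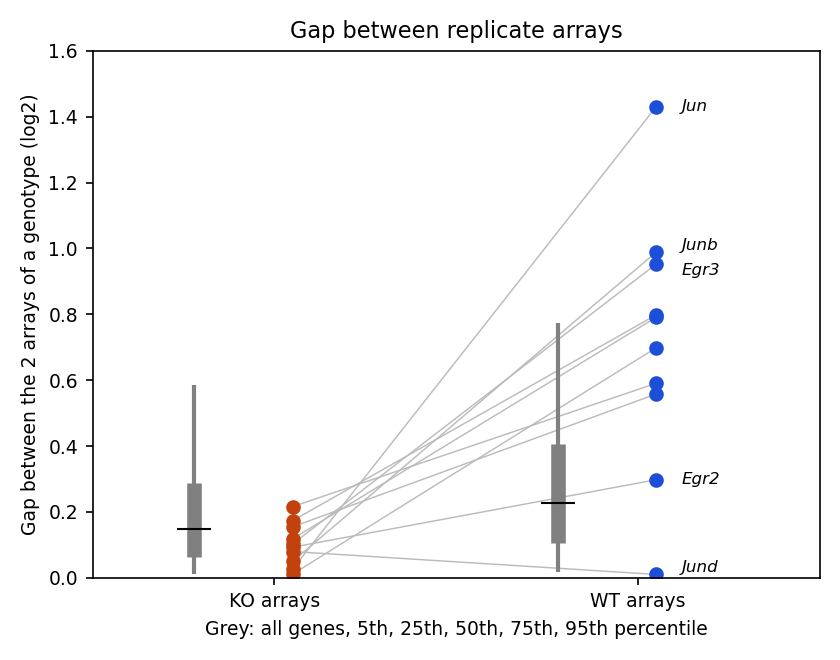
Absolute log2 gap between the 2 arrays of a genotype, KO on the left and WT on the right, with 1 point per member joined by a line. Grey bars give the 5th, 25th, 50th, 75th and 95th percentiles of all genes, and 9 of the 10 members have the larger gap in WT, with Jun at 1.43.

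The size of the KO difference therefore depended on which WT array was used. Set against WT replicate 1 alone, the mean of the KO arrays was lower for 9 of 10 members, with a median of -1.06, and 8 of them passed an adjusted p of 0.05 in limma. In that fit 5.73% of all genes were called lower and 7.8% higher in KO. Set against WT replicate 2 alone, the median was -0.44. Of the 5 members then past the threshold, Fosb (-0.57), Egr1 (-0.83) and Egr2 (-0.97) were lower in KO, and Jun (0.46) and Junb (0.47) were higher, against 1.41% of all genes called lower and 6.5% called higher in that fit. In each of these fits the lone WT array is assumed to vary as little as the KO pair. When a KO array was left out, even the targeted gene Ncoa3 did not pass the adjusted threshold in limma, so failing it says little about the members. At an unadjusted p under 0.05, 2 were lower without KO replicate 1, against 2.86% of all genes, and 1 without KO replicate 2, against 4.22%. Without WT replicate 1 the differences were -0.26 for Fos, -0.32 for Egr3, -0.56 for Atf3 and -0.65 for Fosl2, and none of these 4 passed the threshold.

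**Figure D3:**
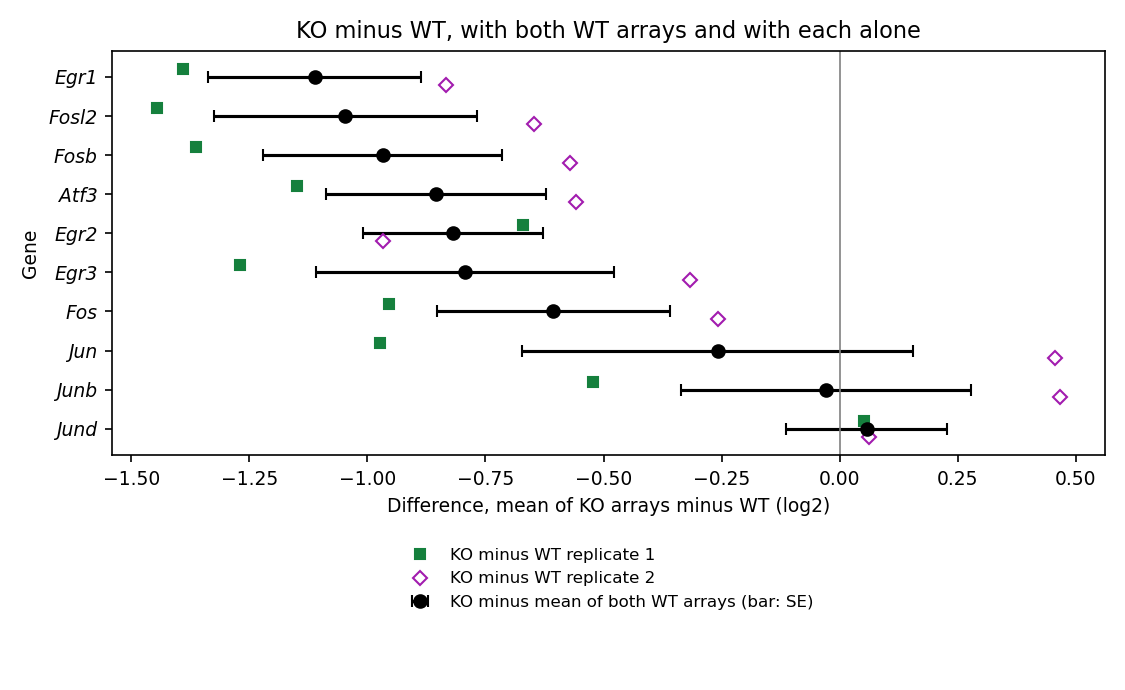
Difference of the KO mean from the mean of both WT arrays (black, bar for the SE), from WT replicate 1 alone (green squares) and from WT replicate 2 alone (open diamonds), in log2 units, by gene. For Jun and Junb the points of the single WT arrays lie on opposite sides of 0, and for 7 genes all 3 points lie below 0.

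Other genes of the same pathways were described with lists. Over all genes, 6.93% were lower and 10.5% higher in KO at an unadjusted limma p under 0.05. Among 17 measured of 20 other AP-1, ATF, CREB and MAF genes, 3 were lower and 2 higher in KO at an unadjusted p under 0.05, 0 passed the adjusted threshold in limma, and the median difference was -0.06. The lower ones were Maf at -0.85 (SE 0.18), Atf7 at -0.65 (SE 0.26) and Atf2 at -0.47 (SE 0.17), which encode bZIP factors. Batf, whose product pairs with JUN proteins in immune cells, was higher on both KO arrays, at 6.24 and 6.44 in KO and at 5.68 and 5.40 in WT, a difference of 0.80 (SE 0.19, limma adjusted p = 0.123). Creb3 was 0.44 higher (SE 0.17), and Creb1, a factor that binds the CRE, was at -0.62 (SE 0.28). Without WT replicate 1 the differences of Creb1 and Atf7 were -0.20 and -0.34. Fosl1 had no probe set of its own in the annotation. Egr4, the remaining EGR gene, was at 5.25 and 5.61 in KO and at 5.83 and 5.95 in WT, with KO below WT and a difference of -0.46 (SE 0.20, limma adjusted p = 0.304). The NAB corepressors, which bind EGR proteins, overlapped between the genotypes, Nab2 at -0.36 (SE 0.28, and 0.034 without WT replicate 1) and Nab1 at 0.12 (SE 0.22).

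Of the regulators that act upstream, Srf itself was at 6.80 and 6.69 in KO and at 6.85 and 6.50 in WT, a difference of 0.07 (SE 0.19) with overlapping arrays. Its partners had lower means. The list of SRF, ternary complex and MRTF genes had a median of -0.48 over 6 members. At an unadjusted limma p under 0.05, 2 were lower in KO, and 0 passed the adjusted threshold. At that unadjusted p 6.93% of all genes were lower and 10.5% higher in KO. Mrtfb, an SRF coactivator, was at -0.64 (SE 0.20) and Mrtfa at -0.55 (SE 0.23), while the ternary complex factors Elk4, Elk3 and Elk1 were at -0.58 (SE 0.26), -0.40 (SE 0.17) and -0.38 (SE 0.25). These genes too were higher on WT replicate 1 than on WT replicate 2, in 6 of 6. Without WT replicate 1 the differences of Mrtfa, Elk4, Elk1 and Srf were -0.28, -0.30, -0.044 and 0.24. Of 21 MAP kinase cascade genes 13 were measured, with a median of -0.35, 4 lower at an unadjusted p under 0.05, 0 higher, and 0 past the adjusted threshold in limma. The kinase genes Braf (-0.57, SE 0.20), Rps6ka5 (-0.53, SE 0.20), Map2k6 (-0.52, SE 0.20) and Rps6ka3 (-0.49, SE 0.17) were the 4. Of the 13 genes, 9 had a lower and 4 a higher mean in KO, and 50.2% of all genes had a lower one. Both KO arrays lay below both WT arrays for 9 and above for 3, against 22.9% and 25.1% of all genes. Without WT replicate 1 Rps6ka5 was at -0.33 and Map2k6 at -0.31. Rps6ka5 encodes MSK1, which phosphorylates CREB and histone H3 at immediate early genes.

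Other immediate early genes leaned the same way. All 43 genes of that list were measured, and 37 had a lower and 6 a higher mean in KO. Both KO arrays lay below both WT arrays for 29 of them and above for 4, and the arrays of 10 overlapped. Over all genes, 22.9% had KO arrays below WT arrays and 25.1% had them above. At an unadjusted p under 0.05, 21 were lower and 0 higher in KO, against 6.93% and 10.5% of all genes. The median of the list was -0.41. Nr4a3, an orphan nuclear receptor gene, fell past the adjusted threshold, the only one of the 43 to do so, with 5.56 and 5.33 in KO, against 6.82 and 6.78 in WT. Its difference was -1.36 (SE 0.18, limma adjusted p = 0.0478), and its adjusted p was 0.0984 with all probe sets of the table in the fit, 0.732 without KO replicate 1 and 0.554 without KO replicate 2. Its relative Nr4a2 was at 6.66 and 6.20 in KO and at 7.77 and 7.78 in WT (limma adjusted p = 0.0625). Nr4a2 and Nr4a3 had near equal levels on the WT arrays, whereas the third gene of that family, Nr4a1, which is named after its values were seen, was at 9.18 and 9.19 in KO and at 10.85 and 9.80 in WT. Dusp5, a nuclear phosphatase that switches off ERK, was at 8.36 and 8.41 in KO and at 9.69 and 9.28 in WT, a difference of -1.10 (SE 0.18, limma adjusted p = 0.0676). Per1, a clock gene that cyclic AMP induces, was at -1.33 (SE 0.29), Ptgs2, a prostaglandin synthase gene, at -0.94 (SE 0.18) and Nfkbiz, an atypical inhibitor of NF-kB proteins, at -0.90 (SE 0.20).

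Heat shock and dissociation stress genes did not share one direction. Of 16 listed, 13 were measured, with a median of -0.02. At an unadjusted limma p under 0.05, 3 had lower and 3 had higher levels in KO, against 6.93% and 10.5% of all genes. Their summed signal was 4612 to 4628 in KO and 4194 to 4991 in WT, so the KO sums lay between the WT sums. Hspa1a and Hspa1b, near-identical HSP70 genes whose probe sets may share signal, were at -0.75 (SE 0.21) and -1.15 (SE 0.31), and Hspb1 at -0.54 (SE 0.18). Of the 13 genes, 7 were higher on WT replicate 1 and 6 on WT replicate 2. Without WT replicate 2 the differences of Hspa1a and Hspa1b were -0.49 and -0.74, and that of Hspd1 was 0.37. The metallothionein genes Mt1 and Mt2, which bind zinc, rose past the adjusted threshold by 1.85 (SE 0.24, limma adjusted p = 0.0469) and 2.69 (SE 0.21, limma adjusted p = 0.0094), and Hspd1, a mitochondrial chaperone gene, was at 0.56 (SE 0.19). The adjusted p of Mt1 was 0.732 without KO replicate 1, 0.552 without KO replicate 2 and 0.0997 with all probe sets in the fit, and that of Mt2 was 0.369, 0.273 and 0.0565 under the same changes. The part of cell handling in the AP-1 and EGR differences was not tested.

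Genes known as AP-1 or EGR targets in other settings were measured for 21 of 23 list entries. Their median difference was -0.30, and 0 passed the adjusted threshold in limma. At an unadjusted p under 0.05, 4 were lower and 1 higher in KO, against 6.93% and 10.5% of all genes. Cdkn1a, the gene of the cell cycle inhibitor p21, was at 9.75 and 9.74 in KO and at 10.67 and 10.54 in WT, a difference of -0.86 (SE 0.13, limma adjusted p = 0.0612) with WT arrays close together. Vegfa, a growth factor gene, was at -0.91 (SE 0.29), Cd44, an adhesion receptor gene, at -0.77 (SE 0.19), and Fn1, the fibronectin gene, at -0.59 (SE 0.17). Ccl2, a chemokine gene, went the other way, with 5.72 and 6.05 in KO and 4.68 and 4.88 in WT, a difference of 1.10 (SE 0.20, limma adjusted p = 0.0806). Plaur, the urokinase receptor gene, was at -0.45 (SE 0.19). Without WT replicate 1 the differences of Vegfa and Plaur were -0.48 and -0.28.

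**Figure D4:**
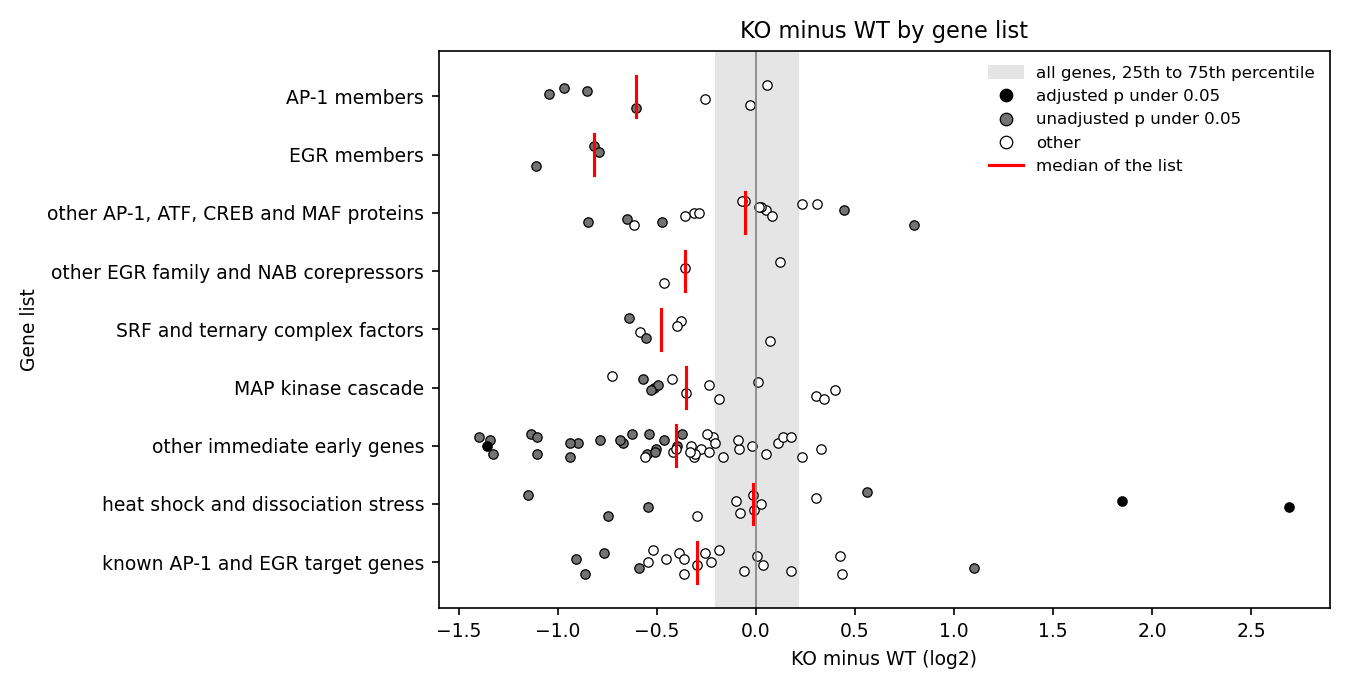
KO minus WT log2 difference of each measured gene, by list, with a red bar at the median of the list and a grey band for the 25th to 75th percentile of all genes. The EGR members, at -1.11 to -0.79, lie left of the band, the AP-1 members spread from -1.05 to 0.06, and the filled black points are Nr4a3, Mt1 and Mt2.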

How the data were processed

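The table that the authors deposited holds log2 values of 41345 probe sets on 4 arrays. RMA and Affymetrix Expression Console 1.2.1 are named in the submitters' processing notes, without settings. The log2 scale was read from the values, while the sources used here give neither a genome build nor filters. RMA compresses dim probe sets. Of the probe sets, 23521 had 1 gene symbol in the platform annotation. The 1814 with several and the 16010 not listed were left out of the main fit. Where a gene had several probe sets, that of highest mean was used. The KO and WT arrays, 2 each, were compared in limma 3.58.1 (R 4.3.3) with an intensity trend, two-sided, with Benjamini-Hochberg adjustment over 22180 genes at a threshold of 0.05. The fit was tested on simulated data. The number of arrays limits the precision. Scan dates were not used here.

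Members and lists were chosen with earlier results of these data known. The text names all members, Ncoa3, up to 6 genes of smallest p per pathway list, any past the threshold, and Egr4, Fosl1, Srf, Nab1 and Nab2. Marker genes served as checks, and Kit, Ly6a, Jchain, Mpo and Elane were named among them after their values were seen. The B cell sum without Jchain was added after seeing the data. Alternatives changed the probe set rule, the filter, the normalization, the trend, the replicate block and single arrays.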

Additional observations from a re-analysis of the deposited data

How the results depend on the processing

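Counts of genes past the threshold depended on the setting: 113 in all, 189 after quantile normalization, 362 with arrays centred on their medians, 289 when genes under the median level were left out, 27 with all probe sets of the table, and 0 to 3002 with each array left out. With each array left out, 0 to 8 members passed the threshold, 1 to 9 were lower in KO at an unadjusted p under 0.05, and the members' median ran from -1.06 to -0.44. Junb was at 0.11 after array median centring and ran from -0.52 to 0.47 with arrays left out, Jun from -0.97 to 0.46, Nab2 from -0.75 to 0.034, Srf from -0.11 to 0.24 and Nab1 from -0.15 to 0.39. Of the 39 pathway genes the naming rule took, leaving out WT replicate 1 moved 13 differences by over 1.5 times or turned their sign, and leaving out WT replicate 2 moved 8. The mean of the Jund probe sets gave -0.044. The cause of these changes was not tested. The other alternatives gave 0 members past the threshold, 7 members with KO below WT, and 5 to 7 lower at an unadjusted p under 0.05. With the replicate number as a block 111 genes and 0 members passed, and the adjusted p of Nr4a3 was 0.0530. Same-numbered arrays correlated at 0.11 in their deviations over genes, and nothing in the labels says that the numbers pair samples. Signal over background could not be judged, since no detection calls were used here.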
